A study of Drosophila melanogaster with 4 samples.

Results

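Arm 2L is the left arm of the second chromosome of Drosophila melanogaster, and its regions enriched for H3K36me3 are described here. The members are all called regions whose sequence name is 2L, which gave 699 of 4238 regions in replicate 1, 709 of 4320 in replicate 2 and 710 of 4468 in a list made for the whole series. They were chosen by position alone, and 3L, 3R and X served as background. That 2L was the least covered of these arms was known when the arm was picked, so this rank is a description. Chromatin immunoprecipitation followed by sequencing (ChIP-seq) had been done on whole embryos of the wild-type strain Oregon-R, a standard laboratory strain, aged 14 to 16 h and fixed with 1.8% formaldehyde. The labels list 2 ChIP and 2 input libraries, with no treatment and no other genotype, and separate embryo collections for the replicates are not stated. The spread between replicates may therefore be technical. With 2 libraries no test over samples was made, and each value is given per replicate or as mean ± SD (n = 2). The sequencing depth behind a region is unknown, because the lists hold no read counts.

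H3K36me3 is histone H3 trimethylated at lysine 36. In the fly the trimethyl mark is placed mainly by the enzyme Set2, which travels with elongating RNA polymerase II, so the mark lies over the bodies of transcribed genes, usually more towards their 3′ parts. It is read by chromatin proteins that keep transcribed bodies free of spurious starts and that act in RNA processing and, on the male X, in dosage compensation. Late embryos hold differentiating nerve, muscle, gut, fat body and epidermal cells. A mark present in few of these cells and a weaker mark in all of them cannot be told apart in whole embryos. Coordinates are those of FlyBase release 5. No annotation of that release was used here, so the regions were not assigned to genes, and the stage could not be checked against marker genes.

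The first question was how much of 2L carried the mark, and whether it differed from 3L, 3R and X in the number, the width or the placing of its regions. Arm 2R was not compared. In replicate 1, regions covered 3.93 Mb of the 23.0 Mb of 2L, or 17.1%. In replicate 2 they covered 3.63 Mb, or 15.8%. The mean was 16.4% ± 0.915 (SD, n = 2), so the arm lay mostly outside the mark. The same shares were 17.9% and 16.6% on 3L, 19.0% and 17.7% on 3R, and 18.9% and 17.3% on X. Within each replicate 2L was the lowest of the 4 arms, although its mean differed from that of 3L by less than the SD between replicates. The ratio of 2L to another arm, taken within each replicate, was steadier than the shares themselves. It was 0.952 ± 0.00554 against 3L, 0.893 ± 0.00581 against 3R and 0.908 ± 0.00528 against X (SD, n = 2 each).

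The lower share of 2L went with fewer regions per length and not with narrower ones. There were 30.4 and 30.8 regions per Mb of 2L in replicates 1 and 2, a mean of 30.6 ± 0.307 (SD, n = 2). The other arms held 31.7 and 33.2 (3L), 33.3 and 34.3 (3R), and 34.3 and 35.7 (X), so the values of 2L lay below those of each other arm. Covered share is the product of density and mean width, which lets each ratio be split. The density ratio of 2L was 0.942 ± 0.0206 against 3L, 0.905 ± 0.00856 against 3R and 0.874 ± 0.0148 against X (SD, n = 2 each). The ratio of mean widths was 1.01 ± 0.0162, 0.987 ± 0.00291 and 1.04 ± 0.0237 against the same arms, which is close to 1.

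**Figure D1:**
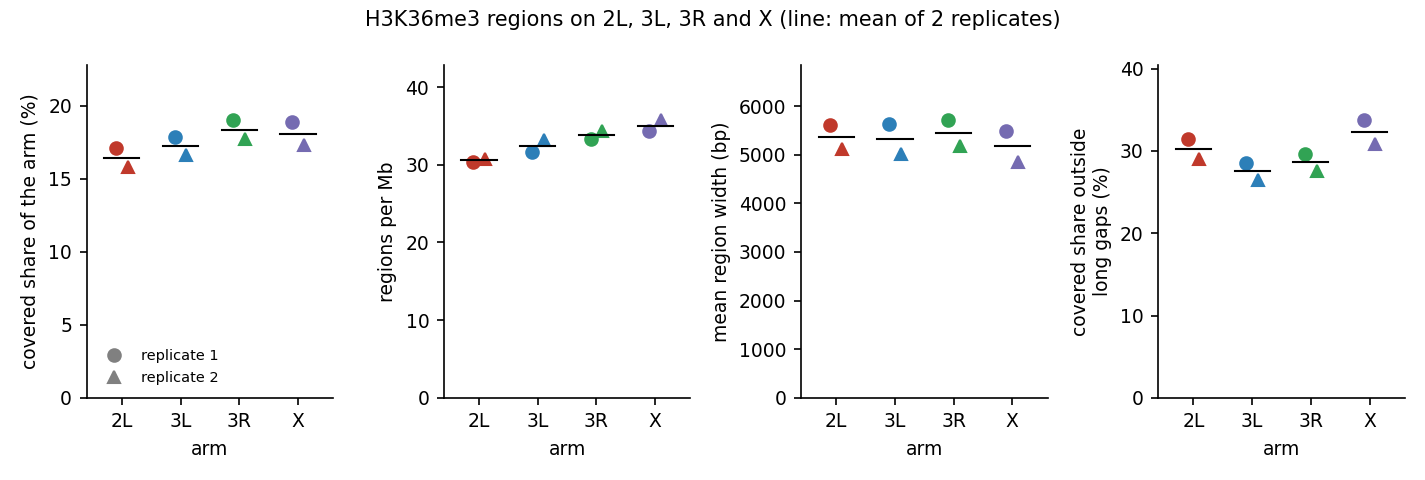
Covered share (%), regions per Mb, mean region width (bp) and covered share outside gaps of 100 kb or more (%) for 2L, 3L, 3R and X, with a circle for replicate 1, a triangle for replicate 2 and a line at their mean. Replicate 1 was covered more than replicate 2 on each arm, and 2L was lowest in covered share (17.1% and 15.8%) and in regions per Mb (30.4 and 30.8) but not in mean width or in covered share outside gaps.

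Single regions of 2L were kilobases wide. Replicate 1 widths ran from 1315 to 26918 bp with a median of 4587 bp, and the middle 50% lay between 3060 and 7340 bp. Replicate 2 widths ran from 1333 to 16679 bp with a median of 4382 bp and a middle 50% between 2972 and 6484 bp. Which arm had the widest median was not stable, since 2L had the highest of the 4 medians in replicate 2 and, in replicate 1, a median below those of 3R and X. The authors' deposited score, whose scale is not stated in the sources used here, had a median of 1.56 in replicate 1 and 1.58 in replicate 2 on 2L. Score and width rose together over the regions of each list (Spearman rho = 0.699 over 699 regions and 0.706 over 709), given as a description since regions of a list share a library.

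The second question was where the unmarked sequence lay. A gap is a stretch covered in neither replicate, and a long gap has 100 kb or more. Arm 2L had 56 long gaps that added up to 10.5 Mb, or 45.6% of the arm, with a median length of 155 kb. Long gaps made up 37.3% of 3L (47 gaps), 35.9% of 3R (61 gaps) and 44.0% of X (56 gaps). Read from each replicate's own list, the share on 2L was 46.0% and 48.5%, against 37.9% and 39.6% on 3L, 36.5% and 41.0% on 3R, and 44.1% and 44.9% on X. The values of 2L thus lay above those of each other arm in both replicates. The difference of the means from 3L or 3R was several times the SD of 1.73 percentage points between the replicates of 2L (n = 2), while that from X was not. The SD between the replicates of 3R was larger, at 3.23 points (n = 2).

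Against 3R and X the difference was larger still for longer gaps. Gaps of 200 kb or more took up 23.8% of 2L (20 gaps), against 16.6% of 3L (14 gaps), 9.45% of 3R (11 gaps) and 16.9% of X (13 gaps). Gaps of 50 kb or more took up 59.5% of 2L, against 56.6%, 52.9% and 56.1%. At 300 kb or more the arms came closer together, with 8.84% of 2L, 7.57% of 3L and 9.10% of X, while 3R had 1.25%. At that length 2L no longer held the highest share.

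**Figure D2:**
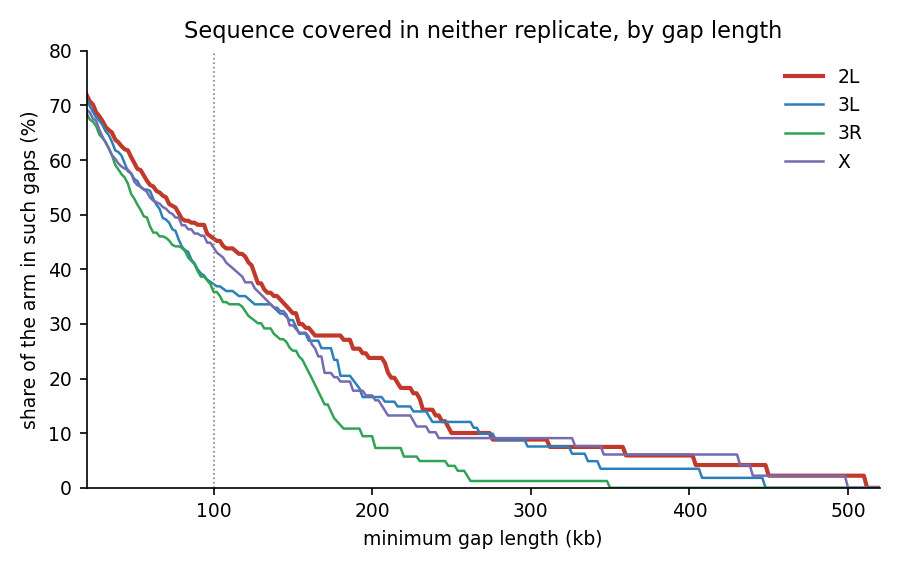
Share of each arm (%) that lies in gaps, covered in neither replicate, of at least the length on the x axis (kb), with 1 line per arm and a dotted line at 100 kb. The line of 2L lies above the other 3 at 100 kb (45.6%) and at 200 kb (23.8%) and meets that of X near 300 kb.

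Outside its long gaps 2L was not sparse. There, 31.4% of the sequence was covered in replicate 1 and 29.0% in replicate 2, against 28.5% and 26.5% on 3L, 29.6% and 27.6% on 3R, and 33.7% and 30.9% on X. The ratio of 2L to 3L was 1.10 ± 0.00639 and to 3R 1.05 ± 0.00686, whereas to X it was 0.936 ± 0.00544 (SD, n = 2 each). The part of the arm that lies outside long gaps was 0.867 times that of 3L, 0.847 times that of 3R and 0.970 times that of X. Against the autosomal arms 3L and 3R, the low covered share of 2L therefore came with more sequence in long gaps and a higher coverage between them. This order depends on the gap length and on which regions are counted. Outside gaps of 50 or 200 kb or more, 2L again exceeded 3L and 3R in both replicates. Outside gaps of 300 kb or more, 2L lay below 3L and 3R in both replicates. In replicate 1 it had 18.7% there, against 19.3% on each of them. Outside gaps of 20 kb or more, 2L lay below 3L, at 60.8% and 56.2% against 62.4% and 58.1%. Its order against 3R then differed between replicates. With only the higher-scored 50% of each list, 2L had 58.3% of its length in long gaps, below the 58.5% of 3L, and its covered share outside gaps of 26.1% was the lowest, against 27.4% (3L), 27.9% (3R) and 27.7% (X).

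The 10 longest gaps summed to 3.29 Mb, or 14.3% of 2L. The longest ran on 2L from 14493929 to 15005308 (511 kb). The next ran from 16918268 to 17367041 (449 kb) and from 15771086 to 16175047 (404 kb). All 3 lie on the side of the arm nearer the centromere. The fourth, from 21762347 to 22121415 (359 kb), lay near the centromere end, and the fifth, from 3875087 to 4185243 (310 kb), lay towards the telomere. The rest of the 10 were between 240 and 276 kb long, at 11516094 to 11792015, 12175414 to 12425234, 20097531 to 20345087, 17720142 to 17963474 and 4554466 to 4794201. On the other arms the longest gap was 447797 bp (3L), 349224 bp (3R) and 499760 bp (X), so the longest gap of 2L, at 511380 bp, exceeded them, the one on X by little.

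Long gaps held little of the series-level list. Only 2.78% of the sequence of that list on 2L lay in neither replicate, so little of it could fall in a gap. Of the 56 long gaps, 8 held a region of that list, 1 in each, and these 8 regions summed to 11.5 kb. The highest of their scores was 1.08. No long gap reached an end of the arm. A gap here means that no region was called, and with no read counts weak enrichment in a gap cannot be told from none.

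The third question was how the mark changed along the arm. On 2L the telomere lies at low and the centromere at high coordinates, and the arm was split at its midpoint, a comparison chosen after the block values had been seen. The telomere side was covered to 20.8% and 19.5% in replicates 1 and 2, and the centromere side to 13.3% and 12.0%. The difference was 7.50 and 7.48 percentage points, or 7.49 ± 0.0136 (SD, n = 2), and the ratio was 1.59 ± 0.0414 (SD, n = 2). This difference was much larger than the spread between replicates. On 3L the telomere side was higher by 2.99 and 2.96 points. On 3R the differences were -0.555 and -0.460 points, and on X they were -0.227 and 0.0710. No other arm in this background showed a difference as large as that of 2L, in either replicate.

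**Figure D3:**
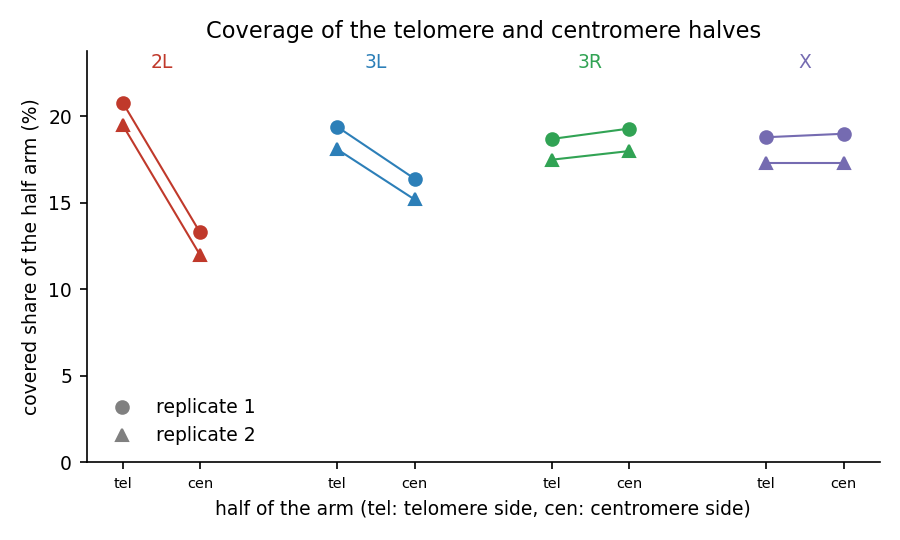
Covered share (%) of the telomere side (tel) and the centromere side (cen) of 2L, 3L, 3R and X, with a circle for replicate 1, a triangle for replicate 2 and a line joining both sides of 1 replicate. On 2L the share went from 20.8% to 13.3% in replicate 1 and from 19.5% to 12.0% in replicate 2, a steeper step than on the other 3 arms.

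The step along 2L was again one of region number more than of width. The telomere side held 36.1 and 37.0 regions per Mb and the centromere side 24.7 and 24.6, a ratio of 1.48 ± 0.0311 (SD, n = 2). The ratio of mean widths was 1.07 ± 0.00537 (SD, n = 2), and 3L and 3R had ratios of 1.06 and 1.05. Wider regions on the telomere side were therefore shared with arms that had a small or no step in covered share. Long gaps filled 34.7% of the telomere side (3.99 Mb) and 56.6% of the centromere side (6.51 Mb), and 32 of the 56 had their middle on the centromere side. Median scores were 1.62 and 1.60 on the telomere side and 1.45 and 1.54 on the centromere side. A higher median score on the telomere side was shared with 3L, 3R and X in both replicates. In replicate 1 these arms had 1.62, 1.63 and 1.62 there, against 1.51, 1.58 and 1.54.

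In 1 Mb blocks, numbered 1 to 23 from the telomere, covered share on 2L ranged from 4.52% to 31.2% as a mean over replicates, with an SD of 6.65 points over the 23 blocks. Replicate 1 was higher in 23 of 23 blocks, and both replicates gave the blocks nearly the same order (Pearson r = 0.997 and Spearman rho = 0.988 over 23 blocks, given as a description). Differences among blocks were thus many times the difference between replicates. On the other arms blocks ranged from 5.53% to 29.1% (3L), from 7.95% to 32.7% (3R) and from 10.3% to 30.5% (X). The poorest block of the 4 arms lay on 2L, and the richest on 3R. In blocks of 500 kb the richest lay on 2L instead, at 45.8% against 42.9% on 3R. These ranks also depend on where the blocks begin. When a 1 Mb window was moved along each arm, the highest window lay on X, with 40.9% and 38.1%. The highest on 3R had 36.7% and 34.7%, and that on 2L 36.1% and 34.4%. The lowest such window lay on 3L, with 2.51% and 1.85%, against 4.55% and 4.37% on 2L.

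**Figure D4:**
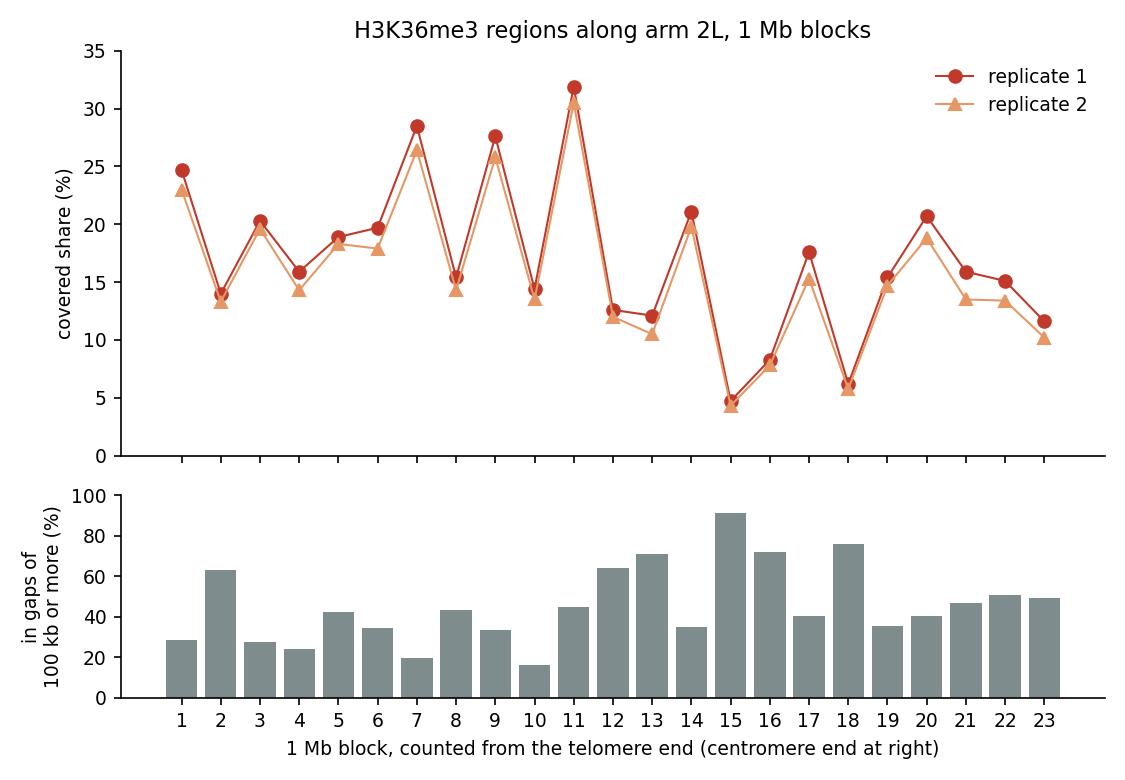
Upper panel, covered share (%) of each 1 Mb block of 2L in replicate 1 (circles) and replicate 2 (triangles), with blocks numbered from the telomere end. Lower panel, share of each block (%) in gaps of 100 kb or more. Blocks 7, 9 and 11 stand highest, at 28.5%, 27.6% and 31.9% in replicate 1, and blocks 15, 16 and 18 lowest, at 4.72%, 8.29% and 6.19%.

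The richest block was block 11, from 10000001 to 11000000, with 31.9% and 30.5% covered in replicates 1 and 2. Block 7, from 6000001 to 7000000, followed with 28.5% and 26.4%, and block 9, from 8000001 to 9000000, with 27.6% and 25.8%. Block 1, at the telomere end, had 24.7% and 23.0%, and block 14, from 13000001 to 14000000, had 21.1% and 19.8%. Of these 5 blocks, 4 lay on the telomere side. Together they held 34.1% and 34.6% of the covered bases of 2L on 21.7% of its length. They carried 44.4 and 46.8 regions per Mb, with median widths of 5378 and 4516 bp.

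The poorest block was block 15, from 14000001 to 15000000, with 4.72% and 4.32% covered and 91.3% of its length in long gaps. It held 10 regions in each replicate. Block 18, from 17000001 to 18000000, had 6.19% and 5.76%, and block 16, from 15000001 to 16000000, had 8.29% and 7.80%. Long gaps took 76.1% of block 18 and 72.0% of block 16. Sequence in a long gap is uncovered by definition, so a large share of long gaps limits the coverage a block can have. Block 23, at the centromere end, had 11.6% and 10.2%, and block 13, from 12000001 to 13000000, had 12.1% and 10.5%. The 5 poorest blocks together held 10.8% and 10.5% of the covered bases and 16.8 regions per Mb in both replicates. Their median scores of 1.47 and 1.52 lay below the 1.61 and 1.58 of the 5 richest blocks. The other 13 blocks had 1.54 and 1.60, which in replicate 2 was above the richest.

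Blocks 15, 16 and 18, with block 17 between them, form a poor stretch from 14000001 to 18000000, chosen after its values were seen. Its covered share was 9.19% and 8.29% in replicates 1 and 2, against 18.7% and 17.3% of the rest of the arm. Long gaps made up 70.0% of it. Block 17 broke the stretch, with 17.6% and 15.3%. When a 4 Mb window was moved along each arm, the lowest window of 2L ran from 14370001 to 18370000, with 8.43% and 7.60%. The lowest windows of the other arms held 12.2% and 10.7% (3L), 13.7% and 13.1% (3R), and 13.8% and 12.7% (X). At this scale the poorest stretch of 2L was poorer than that of the other arms in both replicates. This did not hold for shorter windows. At 1 Mb the lowest window of 2L had 4.55% and 4.37%, above the 2.51% and 1.85% of 3L and the 4.47% and 3.91% of X. At 2 Mb it had 6.05% and 5.72%, below 3L in replicate 1 (6.83%) and above it in replicate 2 (5.40%).

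At a scale of 100 kb the arm was patchy. Of its 230 bins, 49 (21.3%) were empty in both replicates, against 19.2% on 3L, 15.8% on 3R and 17.9% on X. The 23 richest bins held 30.4% of the covered bases, against 27.3% to 27.7% in an equal share of bins on the other arms. The 5 richest bins began at 10200001 (81.5% and 77.8% covered), 10300001 (75.9% and 70.7%), 6900001 (68.6% and 66.7%), 10400001 (58.8% and 58.2%) and 200001 (54.6% and 53.6%). Of these, 3 are neighbours within block 11.

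Long gaps cut 2L into 57 stretches, called islands here, with a median length of 144 kb. Islands of 500 kb or more numbered 7 and made up 21.8% of the arm, against 12 (41.9%) on 3L, 13 (32.8%) on 3R and 5 (17.0%) on X. Islands on 2L were thus shorter than on 3L and 3R, whose medians were 182 and 209 kb, and like those of X, with a median of 134 kb. Among the 35 islands of 100 kb or more, coverage on 2L ranged from 15.1% to 70.6% in replicate 1 and from 12.0% to 67.5% in replicate 2.

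The densest of these islands stood apart from the rest. It ran from 10198454 to 10520120 (322 kb) and was covered to 70.6% and 67.5%, while the next reached 45.3% and 43.8%. On 1.40% of the arm's length it held 5.79% and 5.99% of its covered bases. It contained 33 regions in replicate 1 and 39 in replicate 2, with median widths of 6206 and 5421 bp, separated by median spacings of 1380 and 1376 bp. The island lies in block 11, the richest of the arm, although 44.7% of that block lay in long gaps. The longest island, from 9161043 to 10060763 (900 kb), lay just before it and was much sparser. It was covered to 17.9% and 16.7% by 32 and 33 regions, whose spacing had a median of 17430 and 11954 bp and reached 94.6 and 138 kb. Most of block 10 lies in this island, and the block had 14.4% and 13.5% covered although long gaps took only 16.1% of it. The coverage of block 10 was uneven, with 51.1% and 48.5% in the bin that begins at 9900001 and 3.48% and 2.02% in that at 9300001. Coverage below the block median of 15.0% thus occurred both with most of a block in long gaps (block 15) and with little of it there (block 10). Block 10, with a mean of 14.0%, was close to that median. The 3 blocks under 10% each had 72.0% or more of their length in long gaps.

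Spacing between neighbours varied widely over the arm as a whole. The median spacing was 5625 bp in replicate 1 and 4920 bp in replicate 2, and 48.3% and 50.6% of spacings were under 5 kb. Regions with both neighbours closer than 5 kb numbered 177 (25.3%) and 194 (27.4%). On 3L, 3R and X these shares were 22.0% and 25.0%, 22.3% and 24.0%, and 27.9% and 28.0%. Packed regions were thus no rarer on 2L than on 3L or 3R. Regions with both neighbours 50 kb or more away were few, 14 and 12. They were narrower than the packed ones, with medians of 2218 and 2932 bp against 5082 and 4420 bp, and their median scores were 0.552 and 1.37 against 1.62 and 1.60.

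Both ends of the arm carried the mark. The first covered base lay at 7387, in a region of replicate 1 that ran to 16261 with a score of 2.11, matched in replicate 2 from 7662 to 16251 with a score of 2.14. Among the other arms, X had its first covered base at 1693 and 3L at 141239. The telomere of 3R lies at high coordinates, and 20384 bases followed its last covered base. Coverage close to the telomere end was thus shared with X and 3R. The last region of 2L ran from 22961987 to 22965162 in replicate 1, 46382 bases before the end of the sequence, and scored 1.21. Its match in replicate 2 ran from 22962149 to 22965116 and scored 1.15. The last Mb of the sequence was covered to 11.6% and 10.2%, against 4.01% and 2.88% on 3L and 7.21% and 6.43% on X. On these 3 arms the last Mb lies next to the centromere, and 2L was the most covered of them there in both replicates. Arm 3R, whose centromere lies at low coordinates, had 21.5% and 19.6% in its first Mb.

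The fourth question concerned long domains, regions of 10 kb or more. On 2L there were 69 in replicate 1 and 49 in replicate 2, or 59.0 ± 14.1 (SD, n = 2), and they held 23.9% and 16.7% of the covered bases. Per Mb this was 3.00 and 2.13, against 3.71 and 2.49 on 3L, 3.87 and 2.80 on 3R, and 3.21 and 1.92 on X. Within each replicate 2L had fewer domains per Mb than 3L and 3R, and its order against X differed between replicates. Of the domains, 43 and 35 lay on the telomere side, among its 415 and 426 regions of all widths. The centromere side had 26 and 14, among 284 and 283 regions, so the counts partly follow region number. Arm 3L also had more domains on its telomere side, 53 and 35 against 38 and 26. On 3R and X the order of the sides differed between replicates. The domains of 2L had median scores of 1.83 and 1.88, above the 1.49 and 1.55 of narrower regions.

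Domains of replicate 1 were found again in replicate 2, often in pieces. Each of the 69 domains of replicate 1 overlapped a region of replicate 2, 39 of them a single region and 30 more than 1. A median of 97.7% of a domain was covered in replicate 2, and the lowest value was 80.1%. A partner of 10 kb or more was found for 47 of them. The sequence of the domains was thus largely the same in both lists, and its division into regions differed. The widest region of 2L, from 2133984 to 2160901 (26918 bp, score 2.10), shows this. Replicate 2 split it into 2 regions that covered 98.0% of it, the larger 13242 bp wide with a score of 2.08.

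The longest regions matched by at least 50% of both lengths ran in replicate 1 from 3019260 to 3043017 (23758 bp, score 1.77), from 1164167 to 1186345 (22179 bp, score 1.94) and from 4442015 to 4463336 (21322 bp, score 1.95). Their best matches in replicate 2 were 12722, 13476 and 14295 bp wide, and with a further region each replicate 2 covered 94.6%, 98.5% and 99.1% of them. Replicate 2 had no region of 20 kb or more on 2L. The next 7 were between 16762 and 19065 bp wide in replicate 1, at 9951272 to 9970336, 6481612 to 6499167, 13004667 to 13021740, 17473137 to 17490090, 6968165 to 6985047, 13378662 to 13395504 and 2755200 to 2771961. Of these, 3 were matched by 1 region alone. They began at 17473137, 6968165 and 13378662, and replicate 2 gave them widths of 16525, 16381 and 16679 bp. The last of these was the widest region of replicate 2. The domain at 17473137 stood in block 18, which was otherwise among the poorest blocks.

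The 10 highest-scored regions were mostly wider than the typical region of 2L but were not the longest. In replicate 1, 8 of the 10 exceeded the median width, 5 exceeded the upper quartile and 2 had 10 kb or more. The region from 2228778 to 2236606 (7829 bp) scored 2.50 in replicate 1 and 2.52 in replicate 2. The region from 2488845 to 2493227 (4383 bp) scored 2.58 and 2.42, and that from 19774349 to 19783108 (8760 bp) scored 2.54 and 2.42. The other 7 of the 10 with the highest mean rank in both lists scored between 2.39 and 2.56 in replicate 1 and between 2.32 and 2.51 in replicate 2. They began at 2039219, 5314699, 10280523, 21676913, 20735328, 6724727 and 10858570. Of the 10, 3 lay on the centromere side, and 0 were among the 10 longest matched regions. Each was matched by 1 region in replicate 2 that covered 96.0% or more of it. Long unmarked stretches followed the first, with 121142 bases to the next region of replicate 1, and the region at 10858570, with 100904.

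The last question was how well the replicates matched on 2L. Of 3.97 Mb covered in either replicate, 3.59 Mb or 90.4% was covered in both. The overlap was 91.6% on 3L, 91.3% on 3R and 89.8% on X. Of the replicate 2 bases, 98.9% lay in replicate 1, and of the replicate 1 bases 91.4% lay in replicate 2, so replicate 2 was close to a subset. Regions sharing at least 1 base with the other list numbered 638 of 699 (91.3%) in replicate 1 and 702 of 709 (99.0%) in replicate 2. In 562 pairs with a single partner on each side, the replicate 1 region was wider in 492 (87.5%), by a median of 202 bp. Scores of these pairs ranked alike (Pearson r = 0.959 and Spearman rho = 0.955 over 562 pairs of 2 libraries, given as a description).

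**Figure D5:**
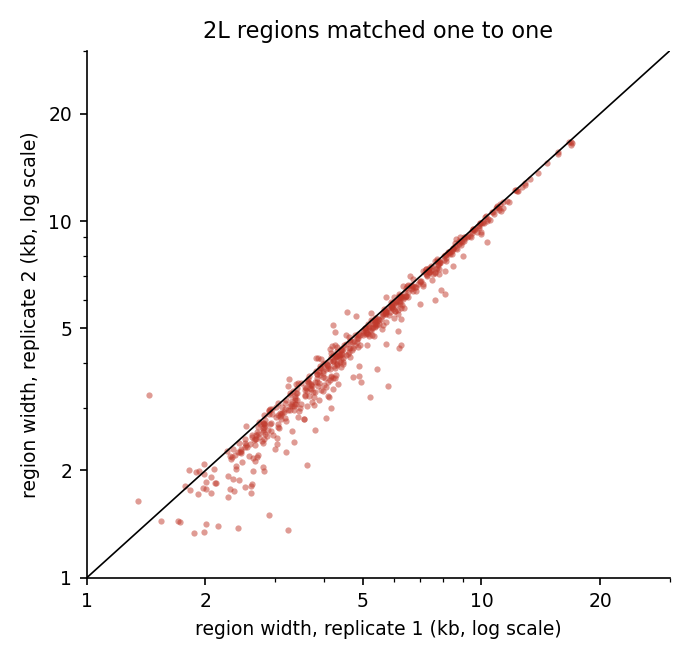
Width of each of 562 regions of 2L in replicate 1 (kb, log scale) against its single partner in replicate 2 (kb, log scale), with the line of equal width. In 492 pairs the point lies below the line, and on the log scales the scatter is larger among narrow regions. Regions with more than 1 partner, such as 30 of the 69 domains of replicate 1, are not plotted.

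The regions without a partner were narrow and low-scored. In replicate 1 the 61 partnerless regions had a median of 1732 bp and scored 0.494, whereas partnered ones had 5040 bp and 1.62. In replicate 2 the 7 partnerless regions had 1556 bp and 0.696, and the partnered ones 4397 bp and 1.59. Partnerless regions were more frequent on the centromere side in replicate 1, with 34 of 284 (12.0%) against 27 of 415 (6.51%), while in replicate 2 there were 2 and 5. This was not particular to 2L. In replicate 1 the centromere and telomere sides had 7.65% and 3.44% on X, 6.50% and 5.12% on 3L, and 6.00% and 5.59% on 3R. Partnerless regions made up 8.73% of replicate 1 regions on 2L, against 5.78% on 3L, 5.81% on 3R and 5.58% on X. This order did not hold for the higher-scored 50% of each list, where 2L had the lowest share, 7.43%, against 7.85%, 8.70% and 11.4%. Among the 5 longest of replicate 1, the first 3 are the regions at 12125642, 5032392 and 6765048, between 3940 and 4256 bp wide. The other 2, at 13503951 and 16879718, were 2780 and 2690 bp wide and scored 0.576 and 0.543. The 5 longest of replicate 2 were between 1511 and 1888 bp wide, scored between 0.665 and 0.750 and began at 8976828, 17590650, 2209517, 3061012 and 16756882. The 10 of both lists were all present in the series-level list, at scores from 0.304 to 0.623.

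The series-level list gave 2L much the same picture with slightly more sequence. Its 710 regions covered 4.06 Mb, or 17.7% of the arm, again below 3L (18.5%), 3R and X (19.6% each). Sequence found in both replicates made up 88.3% of it, sequence of replicate 1 only 8.05%, that of replicate 2 only 0.899% and that of neither 2.78%. The list left out 3 regions of replicate 1, from 4938519 to 4939946, from 22734846 to 22736211 and from 22905819 to 22907315, and 0 regions of replicate 2. The first was 1428 bp wide with a score of 0.657, and the others, 1366 and 1497 bp wide, scored 0.570 and 0.543. Another 34 of its regions overlapped neither replicate. They were short, with a median of 1205 bp and a median score of 0.359, and 10 of them lay in the last Mb of the arm. One of these had the highest score of the list on 2L, 3.09. It ran from 22711606 to 22712606 (1001 bp), and the nearest edge of a replicate region was 10798 bp away. The next highest score among the 34 was 1.08, and the second highest of all 710 was 2.52, for a region found in both replicates.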

How the data were processed

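H3K36me3 ChIP-seq was done on 2 libraries of 14 to 16 h Oregon-R embryos with 2 inputs, per the labels. Bowtie 0.12.7 is named in the submitters' processing notes. The sources used here do not give the region caller, its threshold, the making of the series-level list or the sequencing depth. Coordinates are FlyBase release 5, per the file headers. Each deposited list gives a start, an end and the authors' score, whose scale is not stated, so scores were used to rank and describe regions within a list and, for matched regions, were set side by side or correlated between replicates as a description. Score levels were not compared between lists. The inputs were not analysed on their own.

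Regions of 2L, 3L, 3R and X were read from the deposited lists with pandas 2.3.3 and numpy 2.4.6 under Python 3.11.15, correlated with scipy 1.17.1 and plotted with matplotlib 3.10.9. The region at the end of 3L in each of the 3 lists was trimmed to the sequence length in the headers. Covered share is the percent of a sequence in regions. A gap is covered in neither replicate and is long from 100 kb, gaps at an arm end included. A domain has 10 kb or more. Blocks are the 23 full blocks of 1 Mb on 2L, bins have 100 kb, and regions were counted in the block or side that holds their middle. Sharing needed an overlap of at least 1 base. The interval arithmetic was tested on simulated data before use.

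Named items follow a rule: the 10 longest replicate 1 regions matched by 50% of both lengths, the 10 matched regions with the highest mean score rank, the 10 longest gaps, the 5 longest partnerless regions per replicate, the 5 richest and 5 poorest blocks, the 5 richest bins and the first and last region. The widest region, the densest and longest island, the 4 Mb stretch, the split into telomere and centromere sides, the regions missed by the series-level list and its top-scored region were chosen after their values were seen. Members, rules and lists were chosen with earlier results of these data known. With 2 libraries no test was made. Alternatives were the higher-scored 50% of regions, merging within 1 kb, leaving out a replicate, the series-level list, other gap, domain and block lengths, another overlap rule and leaving out 2 Mb at the centromere end.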

Additional observations from a re-analysis of the deposited data

How the results depend on the processing

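Over 11 results and 59 alternative settings, 33 moved a value by more than the SD between replicates, for a count by more than 1.5 times, or for the overlap and the partnerless share, which have no such SD, at all. The other 26 did not. With the higher-scored 50% of regions, 2L had a covered share of 10.9%, 15.6 regions per Mb, a median width of 6070 bp, 58.3% in long gaps, 26.1% covered outside them, blocks from 2.14% to 22.2%, a difference between telomere and centromere side of 6.10 points, an overlap of replicates of 82.0% and 7.43% partnerless regions in replicate 1. Keeping the upper part of each list by score lowers coverage and can remove a partner by construction. Merging regions within 1 kb gave 23.6 regions per Mb, a median width of 5381 bp, 110 domains, a highest block of 32.2%, a difference between sides of 7.69 points, an overlap of 91.2% and 8.98% partnerless. The series-level list gave 17.7% covered, a median width of 4681 bp, 43.9% in long gaps, blocks from 5.26% to 32.6% and a difference of 7.63 points. With a gap minimum of 50 kb, gaps took 59.5% and 40.5% was covered outside them, and with 200 kb these were 23.8% and 21.5%. Gaps that may hold a region found in 1 replicate alone took 48.9%. At 15 kb there were 12.5 domains on average, blocks of 500 kb ranged from 0 to 45.8%, and 12.2% of replicate 1 regions were partnerless at 50% of both lengths. Without 1 replicate, long gaps took 46.0% to 48.5%. Leaving out 1 of 2 replicates always moves a mean by less than its SD and says nothing about stability. In each setting run, 2L had the lowest covered share of the 4 arms and the largest difference between sides. The rank in covered share was known when the arm was picked, and the settings reuse the same lists, so this is a description. The overlap of replicates in bases does not use the rule on shared regions, so it has no value at 50% of both lengths. The settings for the difference between sides and for partnerless regions were chosen after seeing the data. No paired analysis was possible because the shared replicate numbers only tie each input to its ChIP list, and the inputs have no values here.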

Other observations

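Scores and coverage did not go together in every block of 2L, and no correlation over blocks was computed. Block 17, from 16000001 to 17000000, ranked 10 of 23 in covered share, with 17.6% and 15.3% in replicates 1 and 2, but its regions had median scores of 1.14 and 1.29, against 1.56 and 1.58 over the arm. Its 35 regions in each replicate made it one of the denser blocks of the centromere side. Block 13 showed the opposite, with 12.1% and 10.5% covered and median scores of 1.71 and 1.66. The centromere-end blocks 22 and 23 also had low median scores in replicate 1, at 1.26 and 1.22, and 1.47 and 1.39 in replicate 2. In some poor blocks both were low. Block 18 had the lowest median scores of the arm, 1.06 and 1.22, and block 15, the poorest, had 1.31 and 1.35. Block 16, also poor, had 1.59 and 1.65. These blocks were picked out after their values were seen.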
